A study of Rattus norvegicus with 30 samples.

Results

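Rat hippocampal neurons that received a drug solvent and nothing else were compared after 24 h and after 4 h with that solvent. The comparison used 12 of the 30 libraries of the series. It set 6 libraries at 24 h, 3 with dimethyl sulfoxide (DMSO) and 3 with ethanol (EtOH), against 6 libraries at 4 h with the same solvents, with the replicate number and the solvent as blocks. The cells were primary hippocampal neurons of Wistar rat embryos of embryonic day 18, labelled Wild-type, grown for 7 days before treatment. All of them received their solvent at 0.2%, as did the drug-treated cells. The other 18 libraries came from neurons with 30 µM dimethyl fumarate (DMF) or 30 µM monomethyl fumarate (MMF) in DMSO, or 6 µM cannabidiol (CBD) in EtOH. Solvent controls at each time point are the baseline for the drug comparisons, and the time comparison shows how far that baseline itself moved. Neither a group without solvent nor an earlier time point was analysed here, so time with solvent, age in culture and the hour of collection cannot be told apart.

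Hippocampal neurons taken from late embryos are still immature when plated. Over the following days they extend processes, lose transcription factors of the newborn neuron, and build synapses, ion channels and neurofilaments. Such cultures also hold glia from the dissociated tissue, among them astrocytes and oligodendrocyte precursors, which keep dividing or differentiating beside the neurons. Neurons respond within minutes to activity, medium change or handling by transcribing immediate early genes, which encode transcription factors such as FOS, NPAS4 and the NR4A and EGR families, and the transcripts decay within hours.

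The 12 solvent libraries held between 15108132 and 22625550 reads on genes, with medians of 19129308.5 reads at 4 h and 18823187.5 reads at 24 h. Levels are given as normalised read counts, which are reads divided by a size factor for each library, and they are not corrected for gene length. Changes are given as log2 fold changes (log2FC) of the count plus 1, 24 h minus 4 h, with their standard error (SE). A gene was called where limma's moderated test gave a Benjamini-Hochberg adjusted p under 0.05 over all genes tested. The p-values measure the spread of libraries that is left after the replicate number and the solvent are taken out. Replicate numbers were taken to mark 3 independent experiments, each with a library of every group. The DMSO and EtOH pairs of a number counted as separate, although they would come from the same experiment.

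All 10 neuron markers examined were measured, and their summed level ran from 72036 to 86555 in the 4 h libraries, and at 24 h from 79630.1 to 93958. Astrocyte markers summed to between 49342 and 96014 at 4 h, with Gfap, the intermediate filament of astrocytes, between 12214 and 31629. Microglia markers summed to no more than 418 in any of these libraries, and 6 of the 11 markers were too low to be tested. One library stood apart from the rest. In DMSO at 4 h, replicate 1, immediate early genes were far above their level in the other 11 libraries. Some results that touch these genes are given with and without it, and the others include it.

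Between 4 and 24 h, 395 of 14384 genes were called (2.75%). Of these, 296 rose (2.06% of the genes tested) and 99 fell (0.688%). The changes were small: the median size among called genes was 0.25 on the log2 scale, or 1.19-fold, and 353 of the 395 genes (89.4%) changed by less than 0.5. In 349 of the 395 genes, all 6 pairs of libraries with the same solvent and replicate number went the same way. For comparison, 6.35% of all genes tested were higher at 24 h in 6 of 6 pairs and 4.14% were lower in 6 of 6. The 6 libraries at 24 h lay wholly above the 6 at 4 h in 49 of the 296 genes that rose, and wholly below in 14 of the 99 that fell, against 0.528% and 0.229% of all genes. In the other called genes, the libraries of both times overlapped, and the difference was seen within the pairs. The counts by pair and by overlap use the same libraries that chose the called genes, so they are a description.

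The calls rested on pairing by replicate number. With the replicate number left out of the fit, limma called 0 genes (1473 at an unadjusted p under 0.05). With both solvents averaged first, so that each replicate number counted once per time, 334 genes were called, 271 of them among the 395. Without the 4 libraries of replicate 3, 0 genes were called (1628 at an unadjusted p under 0.05), and without those of replicate 1 or 2, 276 and 117 were called. When any single library was left out, 86 of the 395 genes (21.8%) stayed called in every one of the 12 fits, 67 that rose and 19 that fell. Among the genes named here, Apoe, Dock10, Pdgfra, Olig1, Camk2a, Syn2, Syt1, Nefl, Npas2, Gpc2, Eomes, Nhlh1, Insm1, Sox11, Dusp4 and Tnc were in that set. Olig2, Vamp2, Ncdn, Cnih2, Kcnc4, Jun, Vcan and Ccl2 were called in 2 of the 12 fits.

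**Figure D1:**
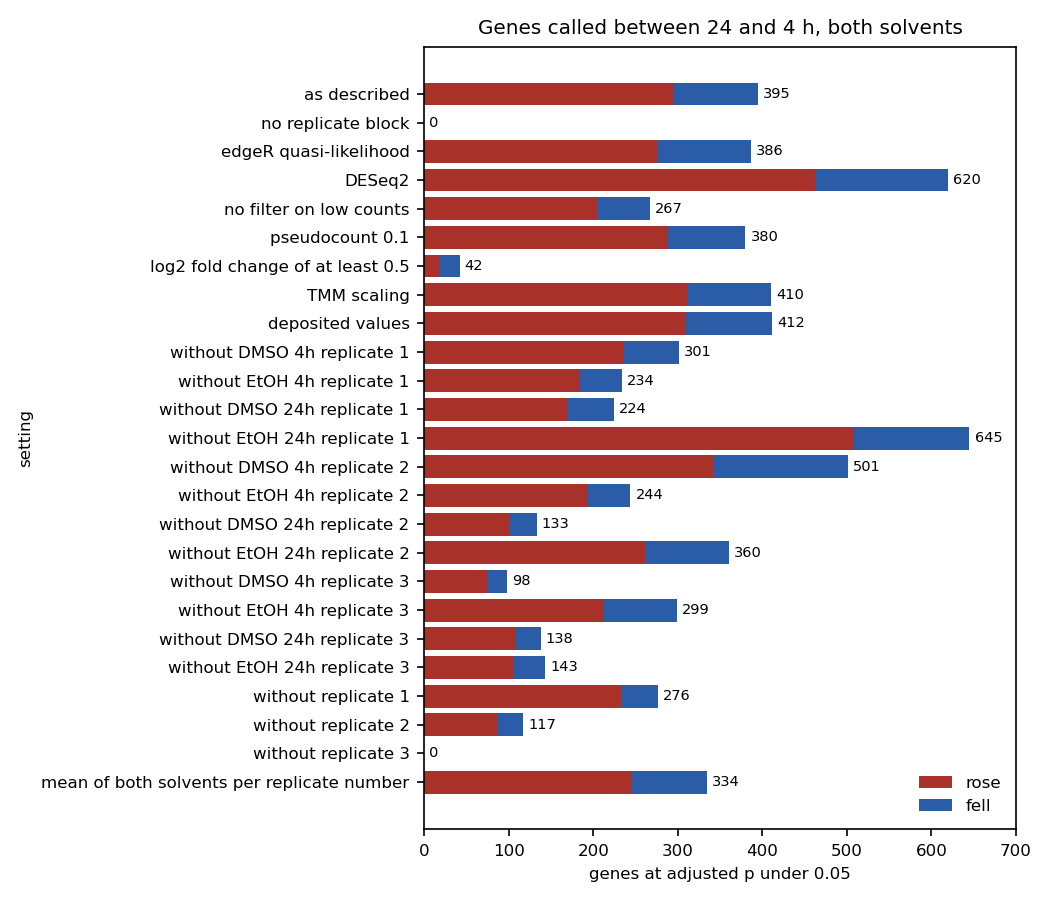
Number of genes called between 24 and 4 h in both solvents together (x axis) under each setting (y axis), with genes that rose in red and genes that fell in blue. The count was 395 as described, 386 with edgeR and 620 with DESeq2, and it was 0 without the replicate block and 0 without replicate 3.

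Among the genes with the smallest p-values that rose were several that are typical of glia. Apoe, which encodes the lipid carrier apolipoprotein E made mainly by astrocytes, lay between 14084 and 29244 in the 4 h libraries (median 19728) and between 19484 and 36652 in the 24 h libraries (median 26122). The groups overlapped, but every pair rose, and the log2FC was 0.40 (SE 0.05, limma adjusted p = 0.00118). Apoe lies at chr1:79353916-79357932 of mRatBN7.2 (ENSRNOG00000018454). Gpr37l1, an orphan receptor of astrocytes and oligodendrocyte lineage cells, rose from a median of 1103 to 1465, with a log2FC of 0.53 (SE 0.07). Slc4a4, the sodium bicarbonate cotransporter of astrocytes, rose from a median of 1285 to 1652 (log2FC 0.47, SE 0.06). Both genes rose in all 6 pairs.

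Oligodendrocyte precursor markers had the largest share of called members among the 28 gene lists examined. Of 9 markers tested, 5 were called and all 5 rose (2.06% of all genes tested were called and rose). The median log2FC of the list was 0.34, against -0.0019 over all genes. Pdgfra, the growth factor receptor that defines these precursors (ENSRNOG00000002244, mRatBN7.2 chr14:33005839-33054335), was 1499.9, 1681 and 841 with DMSO at 4 h and 2440.2, 1913 and 1684 at 24 h, in the order of the replicates. With EtOH it was 1383, 1567 and 1035 at 4 h and 1945, 1840.1 and 1229 at 24 h. It rose in each of the 6 pairs, while its level in replicate 3 was the lowest of each group (log2FC 0.48, SE 0.08, limma adjusted p = 0.00867).

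The transcription factors Olig1 and Olig2, which specify the oligodendrocyte lineage, rose by 0.39 (SE 0.08) and 0.25 (SE 0.06) on the log2 scale, with limma adjusted p = 0.0154 and 0.0464. Olig1 went from a median of 6837 (range 6398 to 8938) to 8759 (range 8116 to 13509). Olig2 rose in 5 of the 6 pairs and Olig1 in all 6. Cspg4, the NG2 proteoglycan on the surface of precursors, rose by 0.34 (SE 0.07). Gpr17, a receptor of precursors about to differentiate, rose by 0.50 (SE 0.11) in 5 of 6 pairs. Sox10, a lineage factor kept through differentiation, was higher in 6 of 6 pairs without passing the test (log2FC 0.26, limma adjusted p = 0.137). The summed level of the list had a median of 12207 at 4 h and 15550.5 at 24 h, with overlapping ranges. Without the 4 h library that stood apart, 4 of the 9 markers were called, and 2 were called without DMSO replicate 3 at either time. The count was 3 without DMSO replicate 1 at 24 h or EtOH replicate 1 at 4 h, and 4 or 5 in the other fits that left out 1 library.

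Outside the list, Bcas1, which marks newly forming oligodendrocytes, was among the largest rises, from a median of 499.6 to 664 (log2FC 0.61, SE 0.09, limma adjusted p = 0.0033, higher in 6 of 6 pairs). Of 6 markers of mature oligodendrocytes that could be tested, only Cnp, a myelin enzyme that appears early, was called (log2FC 0.23, limma adjusted p = 0.0348). Cnp stayed called in 4 of the 12 fits that left out 1 library, 2 of the 6 markers were lower at 24 h, and the list median was 0.09. Of 10 astrocyte markers, 2 were called and rose (2.06% of all genes). They were S100b, a calcium binding protein (log2FC 0.33, SE 0.05), and Slc1a2, the glial glutamate transporter (log2FC 0.29, SE 0.05). Without DMSO replicate 1 at 4 h or at 24 h, or EtOH replicate 1 at 24 h, 4 of the 10 were called. Without all libraries of replicate 1, 5 were called, and without all of replicate 2 or of replicate 3, 0 were called. Gfap, at a log2FC of 0.13 (SE 0.09), and Slc1a3, the second glial glutamate transporter, at 0.07 (SE 0.04), did not pass. In RNA from whole cultures, a change in the number of cells of a type and a change in RNA per cell cannot be told apart.

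**Figure D2:**
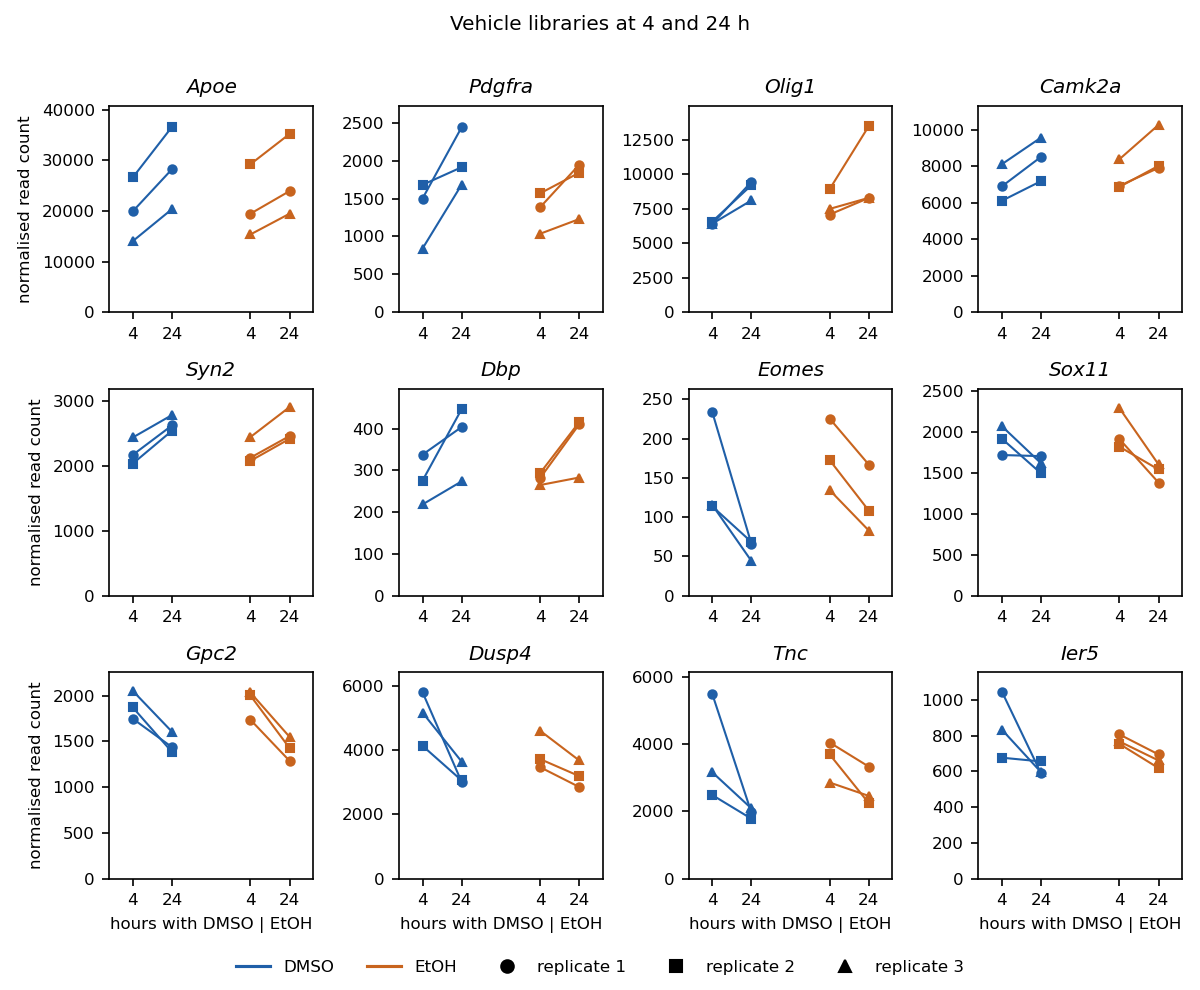
Normalised read count (y axis, from 0) of 12 genes in every solvent library against hours with DMSO (blue) or EtOH (orange), with lines joining libraries of the same replicate number. Apoe, Pdgfra, Olig1, Camk2a, Syn2 and Dbp rose in all 6 pairs, while Eomes, Sox11, Gpc2, Dusp4, Tnc and Ier5 fell in all 6.

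Genes of mature neurons were among those that rose, by small steps. Of the 10 neuron markers, 10 were higher at 24 h (7084 of all 14384 genes) and 3 were called, with a median log2FC of 0.14. The 3 called, Syt1, Nefl and Nefm, also stand on the list of neuronal maturation genes. In that list, 7 of 22 were called and all 7 rose (2.06% of all genes), and the median log2FC was 0.20. By pair of libraries, the median of this list was 0.19, 0.22 and 0.15 with DMSO and 0.21, 0.18 and 0.20 with EtOH. All 6 medians were thus above 0. In each solvent taken alone, 20 of the 22 genes were higher at 24 h (4168 of all 14384 genes).

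Camk2a, the kinase subunit of mature excitatory synapses, was 6901, 6113 and 8115 with DMSO at 4 h and 8519, 7188 and 9574 at 24 h. With EtOH it was 6926, 6869 and 8384 at 4 h and 7913, 8025 and 10268 at 24 h. Every pair rose (log2FC 0.25, SE 0.04, limma adjusted p = 0.00494), although the ranges of the 2 times overlapped. The neurofilament genes Nefl and Nefm, which build the axonal cytoskeleton, rose by 0.27 (SE 0.05) in 5 of 6 pairs and 0.20 (SE 0.05) in 6 of 6. Wfs1, an endoplasmic reticulum protein of CA1 neurons, rose by 0.30 (SE 0.06) in 5 of 6 pairs, and Ncdn, a neuronal protein that binds CaMKII, by 0.20 (SE 0.05). Nell2, a secreted neuronal glycoprotein, rose by 0.15 (SE 0.04). Slc17a7, the vesicular glutamate transporter of hippocampal excitatory neurons, was higher in 5 of 6 pairs but did not pass (log2FC 0.17, limma adjusted p = 0.0734). Thy1, a surface protein of mature neurons, was higher in all 6 pairs and did not pass either (log2FC 0.24, limma adjusted p = 0.0599).

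Genes of the presynaptic terminal followed. Of 31 genes of synaptic vesicles and release, 8 were called and all rose (2.06% of all genes), with a list median of 0.13. Syn2, which tethers vesicles in their reserve pool, had the smallest p of them: it lay between 2033 and 2439 in the 4 h libraries (median 2144) and between 2413 and 2902 in the 24 h libraries (median 2579). It rose in all 6 pairs (log2FC 0.24, SE 0.03, limma adjusted p = 0.0033), with ranges that overlapped only at their ends. Its relative Syn1 rose by 0.21 (SE 0.05). The calcium sensor Syt1 rose by 0.21 (SE 0.04), and the fusion machinery genes Nsf and Vamp2 rose by 0.20 (SE 0.04) and 0.18 (SE 0.04). The active zone scaffold Rims1 rose by 0.23 (SE 0.05), the endocytic GTPase Dnm1 by 0.23 (SE 0.05), and the vesicle protein Syp by 0.17 (SE 0.04). Snap25, the plasma membrane partner of Vamp2, missed the threshold with a log2FC of 0.16 (limma adjusted p = 0.0508, higher in 6 of 6 pairs).

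At the postsynaptic side, the list median of glutamate receptors and their scaffolds was 0.15. Of 36 genes, 6 were called and all rose (2.06% of all genes). Besides Camk2a they included the metabotropic receptor Grm5 (log2FC 0.26, SE 0.04), the scaffolds Dlgap1 (0.19, SE 0.04) and Dlg3 (0.21, SE 0.04), and the AMPA receptor partner Cnih2 (0.20, SE 0.05). For Dlg3 the 2 times did not overlap, with 1321 to 1507 at 4 h and 1519.8 to 1841 at 24 h. Camk2b, the second subunit of the kinase, was higher in 6 of 6 pairs without a call (log2FC 0.11, limma adjusted p = 0.11). Neto1, an auxiliary subunit of kainate receptors outside these lists, was one of the clearest rises: 867 to 1056 at 4 h and 1126 to 1333 at 24 h, with no overlap (log2FC 0.34, SE 0.04, limma adjusted p = 0.00168).

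Of 22 genes of GABA receptors and interneurons, 2 were called and rose (2.06% of all genes), with a list median of 0.12. Gabbr1, a subunit of the metabotropic GABA receptor, went from 19891 to 21004 at 4 h to between 21230.0 and 24114 at 24 h, so that the times did not overlap (log2FC 0.17, SE 0.04). Gabrb1, a subunit of the GABA-gated chloride channel, also did not overlap between times (log2FC 0.24, SE 0.06).

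Of 39 ion channels of excitability, 6 were called and all rose (2.06% of all genes), with a list median of 0.09. Of the 6, 3 were sodium channel genes: the pore-forming Scn2a rose by 0.18 (SE 0.04), and its auxiliary subunits Scn2b by 0.22 (SE 0.05) and Scn3b by 0.18 (SE 0.04). The potassium channels Kcnq5 and Kcnc4 rose by 0.22 (SE 0.04) and 0.30 (SE 0.08), and the low-threshold calcium channel Cacna1i by 0.32 (SE 0.07). With 1 library left out, this count ran from 0 to 11, and the neuronal maturation count ran from 3 to 10 and the synaptic vesicle count from 3 to 11. The glutamate count ran from 2 to 17 and the GABA count from 0 to 7. Low counts came without DMSO replicate 3 at 4 h, where 0 ion channel, 3 neuronal maturation, 3 synaptic vesicle, 2 glutamate and 0 GABA genes were called. Without DMSO replicate 2 at 24 h they were 0, 3, 3, 3 and 0 in the same order, and without EtOH replicate 1 at 24 h they were 11, 10, 11, 17 and 3. Without all 4 libraries of replicate 3, no list had a gene called.

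Several genes outside the lists also rose. Dock10, an activator of the GTPases that shape dendritic spines, lay between 304 and 385 in the 4 h libraries and between 489 and 686 in the 24 h libraries without overlap, the largest log2FC among genes at a mean of at least 50 that rose in every pair (0.63, SE 0.08, limma adjusted p = 0.00168). Adra2a, an inhibitory adrenergic receptor, rose by 0.57 (SE 0.07) from a median of 379.9 to 573. The calcium exporters Atp2b4, a plasma membrane pump, and Slc24a3, a sodium-calcium exchanger, rose by 0.31 (SE 0.04) and 0.27 (SE 0.04), and neither overlapped between times.

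Cpne4, a calcium-dependent membrane binding protein, rose by 0.34 (SE 0.05). Of secreted proteins, 3 rose in all 6 pairs: Spon1 (0.38, SE 0.05), an extracellular matrix protein of axon growth, Ccn3 (0.34, SE 0.05), a matricellular factor, and Smoc1 (0.55, SE 0.08), a calcium-binding matrix protein. Timp4, an inhibitor of matrix metalloproteases, rose by 0.60 (SE 0.12), and Cfap52, a protein of motile cilia, by 0.58 (SE 0.12).

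**Figure D3:**
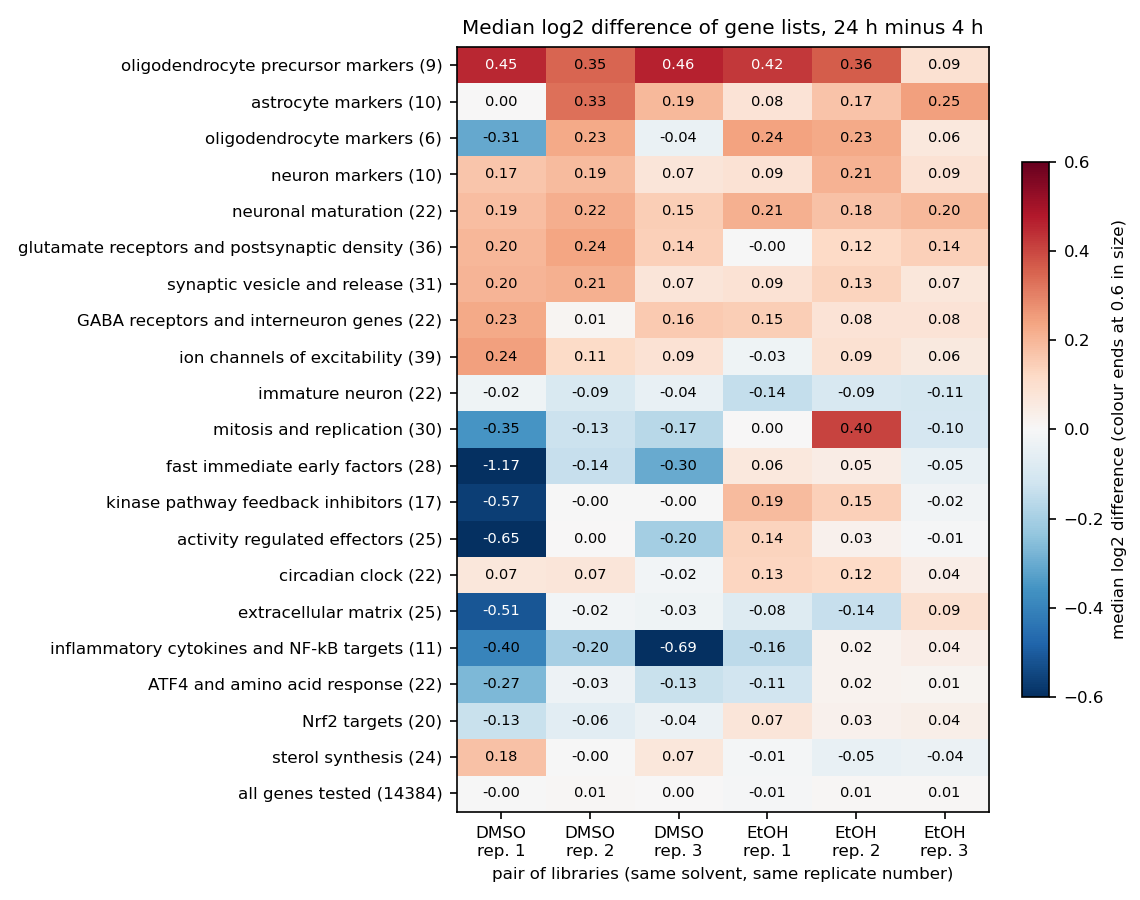
Median log2 difference, 24 h minus 4 h, of each gene list (rows, with the number of genes tested) in each of the 6 pairs of libraries (columns). Oligodendrocyte precursor and neuronal maturation genes were above 0 in all 6 pairs, whereas the fast immediate early genes stood at -1.17 in replicate 1 with DMSO and near 0 with EtOH.

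The genes that fell included factors of newly made neurons. In the list of immature neuron genes, 5 of 22 were called and all fell (0.688% of all genes), with a list median of -0.10. Eomes, a transcription factor of intermediate progenitors that give rise to glutamatergic neurons (ENSRNOG00000042140, mRatBN7.2 chr8:118181777-118188316), showed one of the largest falls. With DMSO it was 234, 114 and 116 at 4 h and 66.1, 68.3 and 44.2 at 24 h. With EtOH it was 225, 173 and 134 at 4 h and 167, 108 and 82.8 at 24 h. Every pair fell, the log2FC was -1.30 with DMSO and -0.60 with EtOH, and the joint value was -0.95 (SE 0.15, limma adjusted p = 0.0046).

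Of the related genes outside the list, Nhlh1, a basic helix-loop-helix factor expressed for a short time in newborn neurons, fell from a median of 109 to 54.4 (log2FC -0.86, SE 0.15). Insm1, a zinc finger factor of neuron-producing progenitors, fell from a median of 749 to 539 (log2FC -0.44, SE 0.07). Within the list, Sox11, which drives genes of early neuronal differentiation, lay between 1718 and 2293 in the 4 h libraries and between 1381 and 1704 in the 24 h libraries, so that the times did not overlap (log2FC -0.33, SE 0.06, limma adjusted p = 0.00718). Neurod1, a differentiation factor, fell by 0.19 on the log2 scale, and Mex3a, an RNA-binding protein of progenitors, fell by 0.23. Igfbpl1, a secreted protein of developing axons, fell from a median of 562 to 367 (log2FC -0.61, SE 0.14).

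Other genes of the list were lower without passing the test. Sox4, the close relative of Sox11, stood at a log2FC of -0.18 (limma adjusted p = 0.0635), and Nes, the intermediate filament of progenitors, at -0.19 (limma adjusted p = 0.0508). Dcx, the microtubule protein of migrating neurons, was at -0.14 (limma adjusted p = 0.222). With 1 library left out, the number of the 22 genes called was lowest at 2, without DMSO replicate 3 at 4 h or without EtOH replicate 3 at 24 h. It was 3 without EtOH replicate 1 or 2 at 4 h or DMSO replicate 2 or 3 at 24 h, and 7 without DMSO replicate 2 at 4 h. Of 30 genes of mitosis and replication, 0 were called by limma, edgeR or DESeq2 (1 at an unadjusted p under 0.05 in limma), and the list median was -0.06 (-0.20 with DMSO and 0.09 with EtOH).

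Gpc2, a heparan sulfate proteoglycan of developing neurons, had the smallest p of all genes tested. It lies at mRatBN7.2 chr12:17277875-17284208 (ENSRNOG00000001367). The libraries at 4 h ran from 1737 to 2050.5 and those at 24 h from 1288 to 1604, so that the times did not overlap, and the log2FC was -0.40 (SE 0.04, limma adjusted p = 0.000617). Fam167a, whose product is little characterised, also did not overlap, with 269 to 392 against 183 to 247 (log2FC -0.63, SE 0.07). Rbpj, the transcription factor through which Notch acts, lay between 1334 and 1471 in the 4 h libraries and between 1164 and 1237 in the 24 h libraries, a fall of small size and narrow spread (log2FC -0.23, SE 0.04).

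Odc1, the first enzyme of polyamine synthesis, fell by 0.20 on the log2 scale without overlap between times (SE 0.03). Igsf9, an adhesion protein of dendrite development, had a log2FC of -0.35 (SE 0.06), and Nuak1, a kinase of axon branching, one of -0.30 (SE 0.05). Adgrv1, a very large adhesion receptor, had a log2FC of -0.39 (SE 0.07), and FAM187A, listed with this spelling in the files, one of -0.68 (SE 0.10). All 4 fell in each of the 6 pairs.

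A few matrix genes of immature nervous tissue were also among those that fell. Of 25 extracellular matrix genes, 2 were called and fell (0.688% of all genes), and 8 were higher at 24 h. Tnc, the glycoprotein tenascin-C, went from a median of 3426 (range 2486 to 5494) to 2165 (range 1782 to 3328), with a log2FC of -0.63 (SE 0.12, limma adjusted p = 0.0128). Its fall was largest in replicate 1 with DMSO, from 5494 to 1969.8, where the 4 h library stood apart, and Tnc stayed called in each fit that left out 1 library. Vcan, the proteoglycan versican, changed by -0.18 on the log2 scale (SE 0.05, limma adjusted p = 0.0494). It stayed called in 2 of the 12 fits that left out 1 library. Tnc and Vcan both fell in all 6 pairs. Has2, a hyaluronan synthase outside the list, fell in all 6 pairs as well (log2FC -0.66, SE 0.16). The list median was -0.11 (-0.22 with DMSO and -0.0035 with EtOH), and 0.01 without the library that stood apart.

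Of 17 genes tested from the list named for feedback inhibitors of kinase signalling, 2 were called and fell (0.688% of all genes). Dusp4, a nuclear phosphatase that switches off ERK, was 5798, 4131 and 5164 with DMSO at 4 h and 3005, 3054 and 3638 at 24 h. With EtOH it was 3469, 3719.9 and 4603 at 4 h and 2852, 3190.3 and 3677 at 24 h. The fall was thus present in each pair and each solvent (log2FC -0.45, SE 0.08, limma adjusted p = 0.00885). Gadd45g, a stress sensor, changed by -0.47 on the log2 scale (SE 0.12, limma adjusted p = 0.045). The median of the list was 0.00, and 0 of the other 15 genes were called.

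Fast immediate early genes were mostly lower at 24 h over both solvents together, but not in each solvent. Of 28 genes tested, 27 were lower in the joint fit (7300 of all 14384 genes). In both single-solvent fits, 12 of the 28 were lower (4012 of all genes). Of the 28, 2 were called and fell, Ier5 and Jun (0.688% of all genes). Ier5, a nuclear regulator, went from a median of 788 to 637 (log2FC -0.35, SE 0.08, limma adjusted p = 0.0248), and Jun, a subunit of the AP-1 transcription factor, from 2479.7 to 2195 (log2FC -0.18, SE 0.04, limma adjusted p = 0.0418). Ier5 was at -0.45 (SE 0.12) with DMSO and -0.24 (SE 0.06) with EtOH, and Jun at -0.09 (SE 0.06) with DMSO and -0.26 (SE 0.05) with EtOH. Ier5 stayed called in 7 of the 12 fits that left out 1 library, and no gene of the list was called without DMSO replicate 3 at 4 h or without DMSO or EtOH replicate 3 at 24 h. The list median was -0.29 over both solvents, -0.57 with DMSO and 0.01 with EtOH.

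In 1 library these genes were far above the others. Fos, the best known immediate early gene, was 1812 with DMSO at 4 h in replicate 1, and 271 and 245 in replicates 2 and 3. In the other solvent libraries at either time it lay between 69 and 229. Npas4, a factor induced selectively by neuronal activity, was 3123 in the library that stood apart and at most 266 in any other. Nr4a1 was 2198 there and at most 284 elsewhere, and Egr1 was 3316 there and at most 840.1 elsewhere. None of these genes was called over both solvents, with limma adjusted p from 0.357 for Fos to 0.685 for Egr1. Without that library Ier5 stayed called and Jun did not (limma adjusted p = 0.0641), the median of the list was -0.08, and the log2FC of Nr4a1 and Egr1 turned positive.

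The early genes Maff, Atf3 and Nfil3 were higher in each of the 3 DMSO libraries at 4 h than in any other solvent library. The share of all genes with this pattern was not counted, so it is a description. Replicate 1 of these libraries is the one that stood apart. Maff, a small MAF factor, was 115, 92.9 and 67.9 in the DMSO libraries at 4 h, and between 16.5 and 38.1 in the other 9. Atf3, a stress-induced factor, was 99.2, 184 and 97.6, and between 27.2 and 81.3 in the other 9. Nfil3, a repressor that also acts in the clock, was 1149, 550.0 and 625, against at most 462 in the others. With EtOH, Maff had a log2FC of -0.17 and Atf3 one of -0.26, and the difference between solvents did not pass the test (limma adjusted p for solvent by time 0.522 and 0.553).

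**Figure D4:**
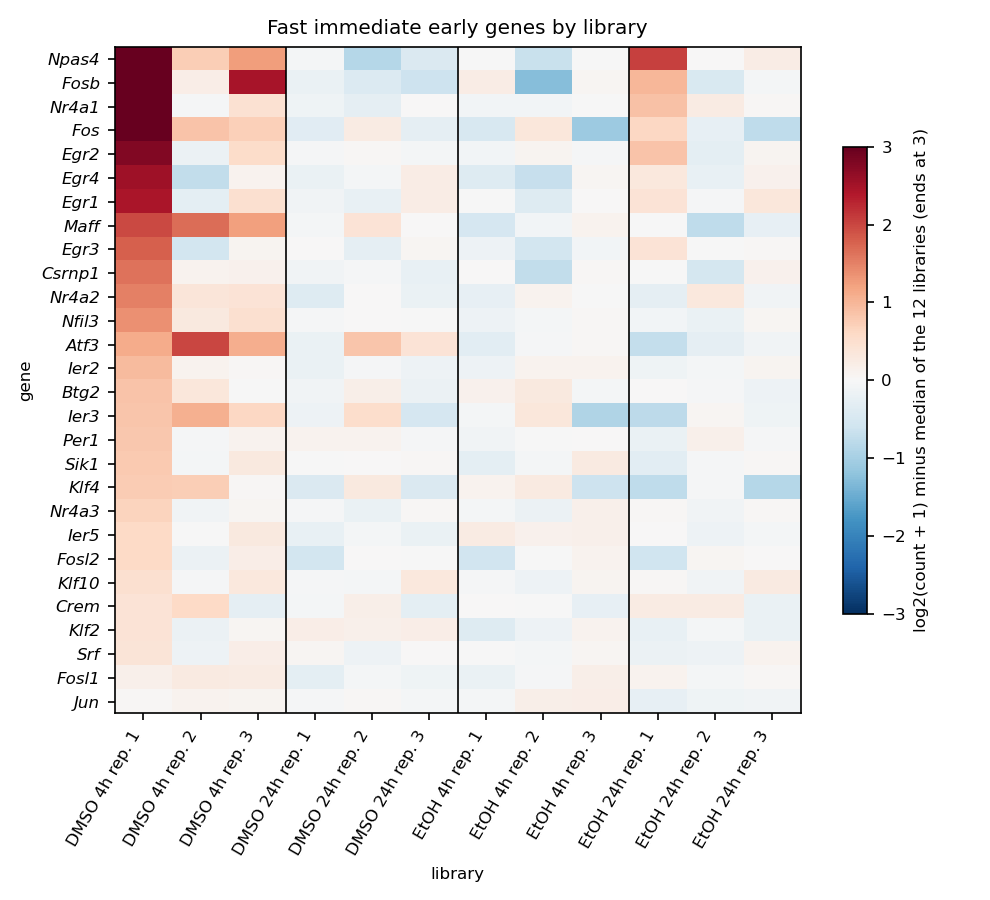
Level of the 28 fast immediate early genes (rows) in the 12 solvent libraries (columns), as log2 of the normalised read count plus 1 minus the gene's median over the libraries. Replicate 1 with DMSO at 4 h holds the highest values of Npas4, Fosb, Nr4a1 and Fos, and EtOH at 24 h, replicate 1, shows a smaller rise of Npas4.

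The cyclic AMP response element (CRE, TGACGTCA, the same on both strands) and the serum response element core, the CArG box, are known control elements of immediate early genes. They were searched on both strands in RefSeq promoters of GRCr8, from 250 bases before to 50 after each gene's start site, for the 20 early genes with an entry. A CRE was found in 4 of the 20 genes (20%), namely Btg2, Crem, Ier2 and Maff, against 2% of the 27457 genes with a promoter, and a CArG box in 3 (15%), against 1.77%. The AP-1 site (TGAGTCA) was in 0 of the 20, against 5.04%. Maff and Btg2 are shown because both hold a CRE and both were higher at 4 h than at 24 h in each DMSO pair. Btg2, an antiproliferative factor, was lower at 24 h in 6 of 6 pairs without a call (log2FC -0.30, limma adjusted p = 0.0912). Capitals mark the CRE and, in Maff, an upstream E-box (CACGTG), which does not overlap it.
Maff promoter, chr7:112792537-112792836, plus strand: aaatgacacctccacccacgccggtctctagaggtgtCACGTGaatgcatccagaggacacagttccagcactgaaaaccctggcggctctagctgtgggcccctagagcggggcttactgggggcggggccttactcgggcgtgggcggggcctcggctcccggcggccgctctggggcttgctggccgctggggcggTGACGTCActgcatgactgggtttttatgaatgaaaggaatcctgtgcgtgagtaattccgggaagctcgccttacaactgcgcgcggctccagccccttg
Btg2 promoter, chr13:48087641-48087940, minus strand: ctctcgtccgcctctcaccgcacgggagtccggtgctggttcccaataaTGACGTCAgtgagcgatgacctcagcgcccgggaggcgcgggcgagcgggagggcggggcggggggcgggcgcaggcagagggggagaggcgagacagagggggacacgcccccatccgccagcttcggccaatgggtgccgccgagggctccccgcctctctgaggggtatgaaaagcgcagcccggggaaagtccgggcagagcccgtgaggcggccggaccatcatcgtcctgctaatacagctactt

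Of 22 clock genes, 2 were called and rose (2.06% of all genes). The count was 1 without DMSO replicate 3 at 4 h or DMSO replicate 2 at 24 h. It was 0 without all libraries of replicate 2 or of replicate 3. Dbp, a clock output factor, was 338, 276 and 219 with DMSO at 4 h and 404, 447 and 274 at 24 h. With EtOH it was 281, 293 and 265 at 4 h and 411, 416 and 283 at 24 h. Each pair rose, least in replicate 3 with EtOH (log2FC 0.40, SE 0.08, limma adjusted p = 0.0156). Npas2, a partner of BMAL1 that can stand in for CLOCK, went from a median of 194 to 257 (log2FC 0.37, SE 0.07, limma adjusted p = 0.0121).

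Tef, a relative of Dbp, was higher in all 6 pairs with a log2FC of 0.14 (limma adjusted p = 0.0501), and Per3, a core clock repressor, likewise with 0.19 (limma adjusted p = 0.0767). Neither passed the test. The E-box to which CLOCK, NPAS2 and BMAL1 bind was found in 5 of 19 clock genes with a promoter (26.3%), against 7.08% of all genes. Tef is shown as one of them, with the E-box in capitals, and no E-box was found in the window of Dbp or Npas2.
Tef promoter, chr7:115206577-115206876, plus strand: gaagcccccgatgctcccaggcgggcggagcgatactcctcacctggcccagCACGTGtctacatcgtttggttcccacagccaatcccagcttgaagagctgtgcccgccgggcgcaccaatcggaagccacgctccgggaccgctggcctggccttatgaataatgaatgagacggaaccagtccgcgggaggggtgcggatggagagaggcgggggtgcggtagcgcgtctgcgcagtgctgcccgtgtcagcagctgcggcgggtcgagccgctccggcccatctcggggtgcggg

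Stress and metabolic programmes showed few calls. Over all genes tested, 2.06% were called and rose, and 0.688% were called and fell. Of 20 Nrf2 targets, the antioxidant genes that DMF is known to induce, 1 was called: Fth1, the ferritin heavy chain, rose by 0.18 (SE 0.04, limma adjusted p = 0.0333). Fth1 stayed called in 5 of the 12 fits that left out 1 library and was lost without EtOH replicate 2 or 3, or DMSO replicate 3, at either time, and without DMSO replicate 2 at 24 h. Of 22 genes of the amino acid response governed by ATF4, 1 was called: Psph, the last enzyme of serine synthesis, fell in all 6 pairs (log2FC -0.28, limma adjusted p = 0.0186). In limma no gene was called among 24 of sterol synthesis, 17 endoplasmic reticulum chaperones, 17 cytosolic heat shock proteins, 25 of hypoxia and glycolysis, 13 of the interferon response, 25 effectors of neuronal activity, 14 glucocorticoid targets, 13 genes encoded by mitochondria, or 8 vascular and meningeal markers. Together with the mitosis genes and microglia markers these lists held 191 tested genes, 23 of which had an unadjusted p under 0.05 (17.7% of all genes tested did), and edgeR called 1 and DESeq2 2 of them. The median of the microglia markers was -1.13, and those of the other lists lay between -0.14 for the activity effectors and 0.08 for the mitochondrial genes. Mt2A, a metallothionein on the glucocorticoid list, was lower in 6 of 6 pairs without a call (log2FC -0.34, limma adjusted p = 0.196).

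Inflammatory and microglial transcripts had few reads. Ccl2, a chemokine, was 21.5, 49.2 and 28.6 normalised reads with DMSO at 4 h, 4.41, 13 and 0 at 24 h, and at most 10.4 in any EtOH library. It was too low to be tested with EtOH and entered the joint test through the group in which it was high, so its call there (limma adjusted p = 0.0439) is given as a description. Of the 11 microglia markers, 5 were tested and 0 were called by limma (1 each by edgeR and DESeq2; 5 at an unadjusted p under 0.05). Among them were C1qa, a complement gene (log2FC -1.55, limma adjusted p = 0.0653), Csf1r, the growth factor receptor of microglia (log2FC -1.03, limma adjusted p = 0.138), and the lysosomal Cd68 (log2FC -0.69, limma adjusted p = 0.0872). Of the 5, 3 were lower at 24 h in 6 of 6 pairs (4.14% of all genes). In both single-solvent fits 2 were lower, a count that leaves out markers too low to be tested in a solvent alone. The filter keeps a gene that is high in 1 group only, so the values of these markers are also given as a description. The summed level of the 11 markers ran from 62.9 to 418 in the 4 h libraries, and at 24 h from 65.9 to 146. The highest sum was that of DMSO replicate 1 at 4 h, the library that stood apart. The median log2FC of the 5 markers was -1.13, -0.82 without that library and -0.45 without replicate 1.

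Each solvent was also tested alone. With DMSO, 205 of 13968 genes were called (1.47%), 153 up and 52 down, and with EtOH 148 of 14155 (1.05%), 93 up and 55 down. Without 1 DMSO library, the DMSO count was 70 or 75 without replicate 1, 3 without replicate 2 and 0 without replicate 3, at 4 h or 24 h. Without 1 EtOH library, the EtOH count ran from 133 to 386. The lists shared 30 genes in the same direction, 14.6% of the DMSO list and 20.3% of the EtOH list, of which 22 rose and 8 fell. Of the 204 DMSO genes also tested with EtOH, 182 had the same sign there (89.2%, against 58.9% of all genes), and 109 had an unadjusted p under 0.05 with that sign, against 12.7% of all genes in either direction. Of the 148 EtOH genes, 123 had the same sign with DMSO (83.1%), and 79 had an unadjusted p under 0.05 with that sign, against 16.6% of all genes in either direction. DMSO and EtOH libraries were separate but carried the same 3 replicate numbers, taken to be the same 3 experiments.

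The 30 shared genes included Apoe, Bcas1, Camk2a, Dock10, Gpr37l1, Olig1, Pdgfra, S100b and Slc4a4 among those that rose. Dusp4, Eomes, Fam167a, Gpc2, Igfbpl1, Insm1, Nhlh1 and Tnc were the 8 that fell. Apoe rose by 0.50 (SE 0.06) with DMSO and 0.30 (SE 0.05) with EtOH. Gpc2 had a log2FC of -0.36 (SE 0.06) with DMSO and -0.44 (SE 0.05) with EtOH. Of the 395 genes called over both solvents, 391 were tested in each, all 391 had the same sign in each, and 345 had an unadjusted p under 0.05 in each. These counts use the libraries that chose the genes and are a description.

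**Figure D5:**
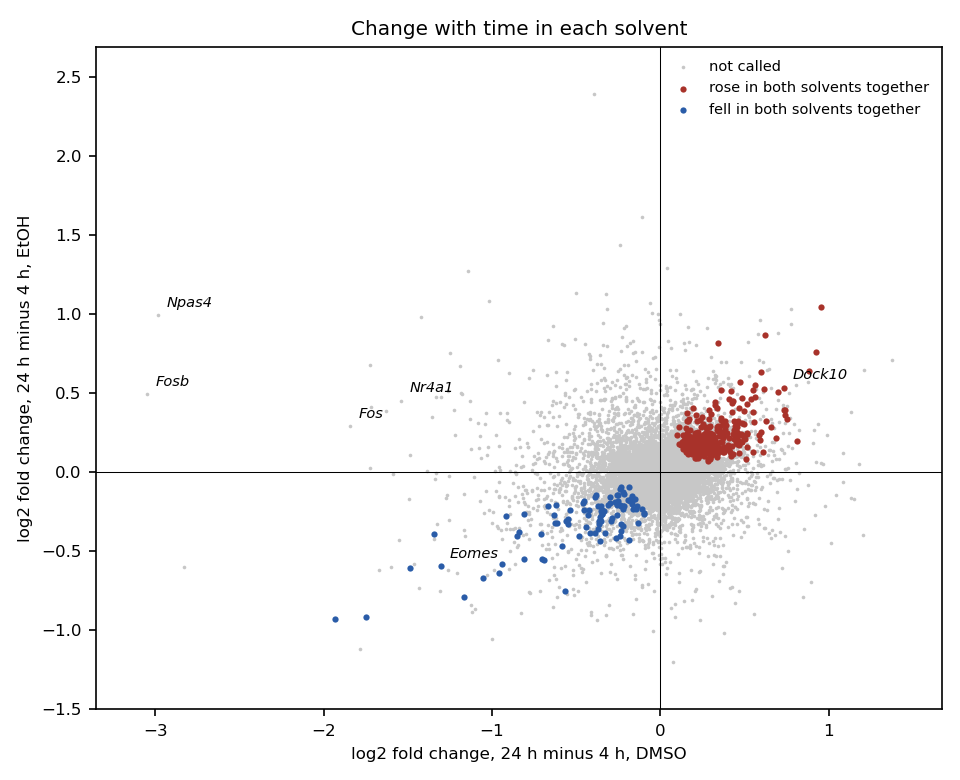
Log2 fold change, 24 h minus 4 h, with DMSO (x axis) and with EtOH (y axis) for every gene tested in each solvent, with genes called over both solvents in red where they rose and blue where they fell. Called genes lie along the diagonal, and Npas4, Fosb, Fos and Nr4a1 lie far to the left, between -3.05 and -1.54 with DMSO, with values above 0 with EtOH.

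The test of a different change with time between the solvents called 0 of 14384 genes in limma (1205 at an unadjusted p under 0.05) and 0 in edgeR. DESeq2 called 4 genes, which were named after their values were seen. Slc43a2, an amino acid transporter, stood at 0.44 with DMSO and -0.22 with EtOH on the log2 scale, and Slc16a6, a monocarboxylate transporter, at 0.22 and -0.47. Kdm3a, a histone demethylase, was at -0.58 and 0.10, and C2cd4c at 0.63 and -0.03. The limma adjusted p for the difference was 0.215 for Slc43a2 and 0.522 for Slc16a6.

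In the drug-treated neurons, which shared the replicate numbers but no library with the solvent groups, the signs of the same 395 genes were counted. With MMF, 392 of 394 had the same sign (all genes 72.5%), and with DMF 309 of 395 (all genes 60.8%). With CBD it was 245 of 394 (all genes 49.3%), made up of 165 of 295 genes that had risen with solvent and 80 of 99 that had fallen. Eomes was at -0.38 (SE 0.24) with MMF, -1.65 (SE 0.26) with CBD and -2.11 (SE 0.23) with DMF. Apoe was at 0.60 (SE 0.11) with MMF, 0.07 (SE 0.09) with CBD and 0.40 (SE 0.08) with DMF. Camk2a was at 0.29 (SE 0.07) with MMF, -0.0037 (SE 0.10) with CBD and 0.11 (SE 0.07) with DMF. Differences between these groups and the solvent groups were not tested.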

How the data were processed

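Poly(A)+ RNA of 30 libraries was sequenced, and 12 solvent libraries were compared here. Per the labels, the authors used cutadapt 4.4, Trimmomatic 0.39, HISAT2 2.2.1, HTSeq 2.0.3 and DESeq2 1.40.2 on mRatBN7.2. The authors deposited a table per pair of groups, whose signal values are read counts divided by DESeq2 size factors, beside their own fold changes and p-values, which were not used. The HTSeq strand setting is not given in the sources used here, so overlapping genes may share reads. Whole reads were recovered from the values, and 100% of 841218 values were whole within 0.001. Of these recovered reads, genes were kept by filterByExpr, scaled by median-ratio size factors of the 12 libraries, and tested as log2(count + 1) with limma 3.58.1 (R 4.3.3) with replicate number and solvent as blocks. Single-solvent fits used the deposited values. Each log2 fold change understates the change of low genes. edgeR 4.0.16, DESeq2 1.42.0, another scaling (TMM), another pseudocount, no filter and left-out libraries were tried as alternatives, and the fits were tested on simulated data. Replicate numbers were read from the library titles. They were taken to mark the 3 independent experiments of the study, and that a number is the same experiment in every group was inferred. Deviations from group means correlated at 0.136 to 0.600 between libraries of the same number (18 pairs). Between numbers they correlated at -0.493 to 0.178, so the ranges overlapped. Genes were named by a rule: the called genes with the smallest p or largest change that moved alike in 6 of 6 pairs, the called and the most abundant uncalled members of 28 gene lists, and genes called in each solvent. Some further list members, and 4 genes called by DESeq2 for solvent by time, were named after their values were seen. The comparison, its lists and its tests were chosen with earlier results of these data known. Of the 561 genes on the lists, 549 had a row, and the others were not analysed here. Values of some list members are not reported here. Promoters came from RefSeq (GRCr8).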

Additional observations from a re-analysis of the deposited data

Results flagged for a closer look

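Among 109 genes considered for naming, 5 had each of the 3 pairs with DMSO move one way and each of the 3 pairs with EtOH the other way (4.59%), as did 472 of all 14384 genes tested (3.28%). Of the 5, Kdm3a, Slc16a6 and Slc43a2 were considered because DESeq2 called them for solvent by time. The share among the 109 is thus raised by that choice and is a description. The difference of the changes, EtOH minus DMSO on the log2 scale, was 3.98 (SE 0.85) for Npas4, 1.99 (SE 0.75) for Nr4a1, 0.69 (SE 0.14) for Kdm3a, -0.68 (SE 0.13) for Slc16a6 and -0.66 (SE 0.11) for Slc43a2. None passed limma's test of solvent by time, with adjusted p of 0.522, 0.553, 0.522, 0.522 and 0.215 in that order. Npas4 and Nr4a1 were highest in DMSO replicate 1 at 4 h, the library that stood apart. Without that library the difference for Npas4 was 2.75 (SE 0.39). The groups held 3 libraries each, so no formal search for outlying libraries was made.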

How the results depend on the processing

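Libraries were paired by replicate number. Without the replicate block, limma called 0 genes over both solvents, 0 with DMSO and 0 with EtOH (1473, 1362 and 391 at an unadjusted p under 0.05). DESeq2 called 620 over both solvents, 57 with EtOH and 4 for solvent by time. With a log2 fold change of at least 0.5 required, 42, 67 and 19 genes remained over both solvents, with DMSO and with EtOH. With libraries left out, the count over both solvents ran from 0 (without replicate 3) to 645 (without EtOH replicate 1 at 24 h). It was 98 and 138 without DMSO replicate 3 at 4 and 24 h, 133 without DMSO replicate 2 at 24 h, 143 without EtOH replicate 3 at 24 h, 117 without replicate 2, and 224, 234 and 244 without DMSO replicate 1 at 24 h or EtOH replicates 1 and 2 at 4 h. With DMSO alone it ran from 0 (without replicate 3 at either time) to 75, with EtOH from 133 to 386 (both at 24 h, without replicate 3 and replicate 1). For solvent by time it ran from 0 to 2, with Npas4 called without DMSO replicate 1 at 4 h, and Fosb and Vgf without DMSO replicate 2 at 4 h. edgeR, TMM scaling, the deposited values, another pseudocount and no filter kept the count over both solvents within 1.5 times. Scaling moved the median of all genes by less than 0.1 on the log2 scale. Without DMSO replicate 1 at 4 h the log2 fold change of Nr4a1 became 0.081, of Egr1 0.14 and of Vgf 0.0085, from lowest values with other libraries left out of -0.90, -0.52 and -0.48, and without replicate 1 that of Egr1 became 0.13. Of the other values of named genes, 2020 were alike in direction and call, 546 lost a call and 46 gained one. The causes were not tested. Intervals of small changes were limited by 3 experiments, and genes with few reads, such as Ccl2 and the microglia markers, varied widely between libraries of the same time.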
